A study of Mus musculus with 16 samples.

Results

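The genes described here are 10 markers of fat cells measured in whole quadriceps muscle of the mouse: Adipoq, Cfd, Retn, Lep, Fabp4, Plin1, Cidec, Cidea, Pparg and Ucp1. They were taken by gene name from a table of 45706 genes, in which each of the 10 had 1 entry. Of these, 9 passed the filter on low counts, together with 13792 genes in all, and Ucp1 did not. The table covers 16 libraries of polyadenylated RNA, 8 from animals in which the gene for NAMPT was knocked out in skeletal muscle (KO) and 8 from WT, the wild type. The 2 groups share, per the labels, the tissue, the RNA extraction and the library kit. The labels used here do not state the promoter that drove the deletion, the age, the sex or whether each library came from its own animal, so a p-value here refers to the variation among these 16 libraries, which may be technical. The study asked whether loss of NAD in muscle speeds its ageing, and fat between the fibres is one of the tissue changes known in aged muscle.

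White fat cells store triglyceride in a single large droplet and release hormones that act on muscle, liver and brain. The nuclear receptor PPARG, working with C/EBP proteins, turns on most of the genes that define these cells. Muscle fibres make little of these products, so RNA for them in a piece of muscle is usually taken to come from fat between or around the fibres, although FABP4 is also made by capillary endothelium and macrophages and PPARG is made at low levels in many cells. In bulk tissue, fewer cells of a type and less RNA per cell cannot be told apart.

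The promoters of 3 of the 10 genes are shown because Adipoq and Plin1 went up and down together across the libraries and Lep did not. Each runs 5′ to 3′ from 250 bases before to 50 bases after the start site in RefSeq (GRCm38.p6), and capitals mark CCAAT or TTGCNNAA on either strand, letters used here as simple stand-ins for CCAAT-box and C/EBP-type motifs.
Adipoq promoter, chr16:23146286-23146585, plus strand: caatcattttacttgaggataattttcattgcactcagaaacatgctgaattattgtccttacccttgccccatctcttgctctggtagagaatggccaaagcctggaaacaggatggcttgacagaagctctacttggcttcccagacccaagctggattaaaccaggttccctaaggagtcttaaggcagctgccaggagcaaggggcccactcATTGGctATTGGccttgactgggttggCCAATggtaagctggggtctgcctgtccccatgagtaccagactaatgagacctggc
Plin1 promoter, chr7:79732727-79733026, minus strand: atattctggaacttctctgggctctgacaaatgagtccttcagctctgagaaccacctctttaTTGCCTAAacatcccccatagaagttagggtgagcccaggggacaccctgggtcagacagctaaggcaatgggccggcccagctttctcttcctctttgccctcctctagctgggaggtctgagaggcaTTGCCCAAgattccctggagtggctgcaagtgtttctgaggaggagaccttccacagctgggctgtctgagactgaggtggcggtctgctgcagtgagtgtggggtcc
Lep promoter, chr6:29059971-29060270, plus strand: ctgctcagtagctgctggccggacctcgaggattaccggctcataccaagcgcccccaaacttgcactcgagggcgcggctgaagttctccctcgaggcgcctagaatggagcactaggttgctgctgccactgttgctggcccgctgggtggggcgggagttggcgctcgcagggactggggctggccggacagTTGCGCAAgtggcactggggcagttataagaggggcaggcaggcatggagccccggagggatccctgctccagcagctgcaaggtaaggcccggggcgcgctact
CCAAT stood at 3 places in the Adipoq window, at -34, -27 and -7 from the start. TTGCNNAA stood at -187 and -58 in the Plin1 window and at -55 in the Lep window, where it read TTGCGCAA. Among all 32851 mouse promoters of this length, 37.4% held CCAAT and 10.8% held TTGCNNAA. Windows for 8 of the 10 genes were searched, all but those of Cidea and Fabp4. CCAAT was in 2 of the 8 genes, Adipoq and Pparg, and TTGCNNAA in 4 of the 8, Plin1, Cidec, Lep and Pparg. The hexamer AGGTCA, to which nuclear receptors bind, was in Ucp1 and Pparg and in 16.3% of all promoters. The exact direct repeat of 2 such hexamers with 1 base between was in 0 of the 8 genes and in 0.0396% of all promoters. It served as a strict stand-in for DR1, the element on which PPARG pairs with a retinoid X receptor. Looser forms, and sequence outside these windows, were not searched. Only 13 of the 32851 promoters held the exact repeat, so its absence here does not show that these genes lack the element. TATAAA was in Pparg and in 13.6% of all promoters. Pparg and Cidec have more than 1 start site in RefSeq, and a gene was counted where any of its windows held the letters. The shares of all promoters are instead per window, so the counts of genes and these shares are not in the same unit. A match describes the letters only. TTGCNNAA was present both in Plin1, which followed Adipoq, and in Lep, which did not, and the part of these motifs in the RNA levels was not tested.

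Levels of 1 gene are given as CPM, its count scaled to the same library size in every library. The targeted gene fitted the labels in every library. Nampt ran from 60.4 to 88.7 CPM in KO with a median of 74.7 CPM, and from 125.5 to 161.1 CPM in WT with a median of 141.1. The groups did not overlap, and the log2 fold change of KO over WT was -0.95 (SE 0.07; adjusted p = 9.68e-07, edgeR's quasi-likelihood test with Benjamini-Hochberg adjustment over all tested genes). The tissue carried its defining genes: Acta1, the actin of skeletal muscle fibres, had at least 22110 CPM in every KO library and at least 18450 CPM in every WT library. Library totals ran from 16065357 to 51881239 estimated counts and RNA integrity numbers from 8.2 to 8.8. KO replicates 1, 3, 5 and 8 stood apart in small nuclear and nucleolar RNA, with 26.2, 29.2, 27.1 and 14.5 CPM, against 2.28 to 2.94 CPM in the other KO libraries and 1.97 to 7.83 CPM in WT. Results for the fat cell genes are therefore also given without these 4 libraries.

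All 10 genes had reads in all 16 libraries, at very different levels. Levels between genes are given as CPM per kilobase of the principal transcript, as a mean over the 16 libraries. Where a gene has several principal transcripts, as Cidec and Retn do, their median length was used. Fabp4, which carries fatty acids inside the cell, was the highest at 118.9 CPM per kilobase, followed by Cfd at 51.8, Adipoq at 7.12, Cidec at 4.88, Plin1 at 2.90 and Retn at 2.61. Below them came Pparg at 1.27, Cidea at 0.621, Lep at 0.598 and Ucp1 at 0.121 CPM per kilobase. Fabp4 was above Cfd, and Cfd above Adipoq, in 16 of 16 libraries with no overlap of their ranges. All other neighbours in that order overlapped. The order also depends on the length used. With the length of all exons of a gene, Fabp4 had a mean of 23.72 CPM per kilobase, below Cfd at 51.81, and Plin1 had 1.195, below Retn at 1.666. Plin1 was above Retn in 10 of 16 libraries and Cidea above Lep in 7 of 16, so the order within those pairs was not stable from library to library. For scale, Acta1 stood at 17720 CPM per kilobase and Fabp3, the fatty acid carrier of muscle fibres, at 421.5, above Fabp4. Fabp5, a close relative of Fabp4 found in skin, fat and endothelium, stood at 5.12 CPM per kilobase.

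No shift of fat cell RNA was detected between KO and WT quadriceps. Of the 9 tested genes, 0 were called at an adjusted p under 0.05 by edgeR, where 0.0435% of all tested genes were called. At an unadjusted p under 0.05, 0 of the 9 were past the threshold in edgeR, where 9.57% of all tested genes were. Of other tools, limma also called 0 of the 9, and DESeq2 0 of the 5 for which it gave an adjusted p, which leaves out Cidea, Lep, Retn and Pparg. The fold change of KO over WT was above 0 for 6 genes and below 0 for 3, with a median log2 fold change of 0.04 over the 9, against 0.0045 over all tested genes. The KO and WT ranges overlapped for all 10 genes, as the plot of CPM by genotype shows.

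**Figure D1:**
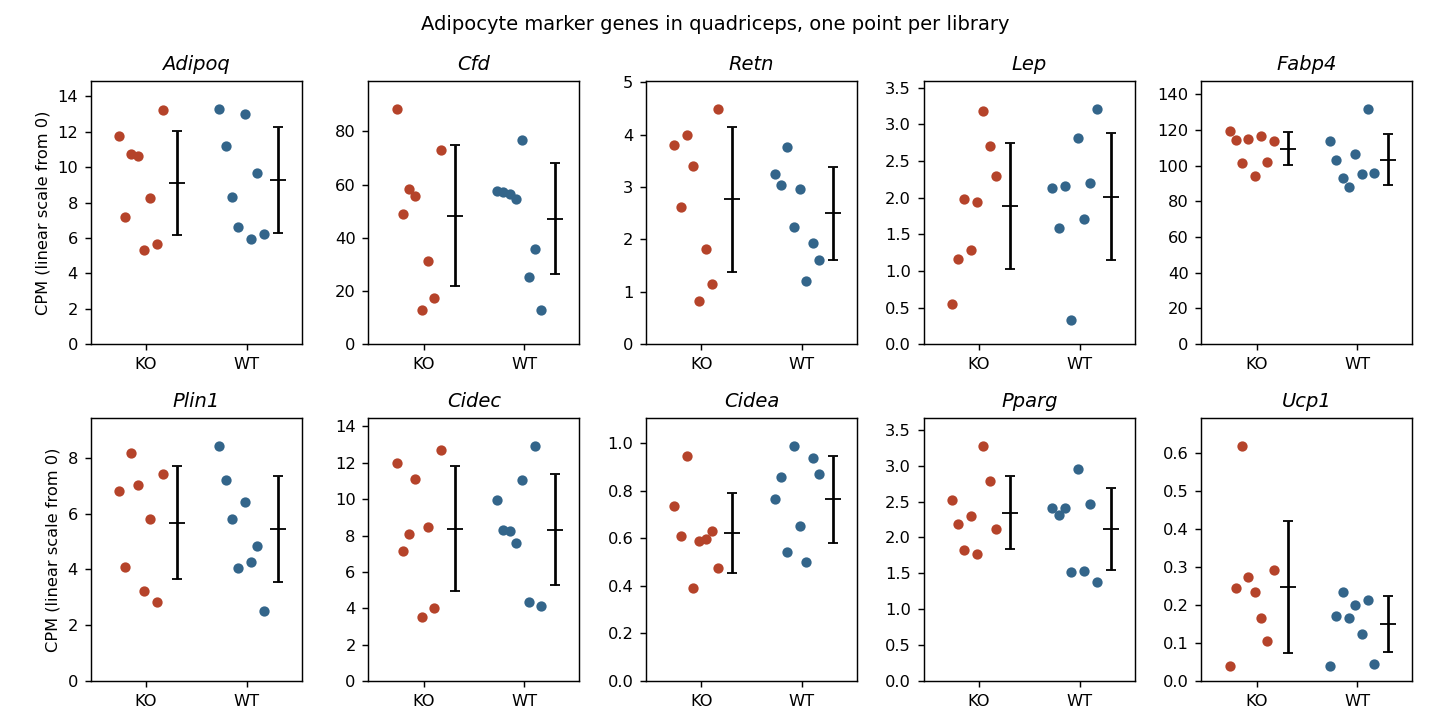
CPM (linear axes from 0) of the 10 fat cell marker genes, 1 point per library, with 8 KO libraries left of 8 WT libraries in each panel. The horizontal mark is the mean and the bar the SD. The groups overlap in every panel, and Adipoq runs from 5.35 to 13.2 CPM in KO and from 5.94 to 13.3 CPM in WT.

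Among the secreted products, Adipoq encodes adiponectin, a hormone made almost wholly by fat cells that raises fatty acid use in muscle and liver (ENSMUSG00000022878, GRCm38 chr16:23146536-23158028, plus strand). Its lowest, median and highest levels were 5.35, 9.47 and 13.2 CPM in KO and 5.94, 8.98 and 13.3 CPM in WT. KO replicate 5 and WT replicate 6 were the low ends, KO replicate 8 and WT replicate 1 the high ends, and both genotypes filled the same range. The mean was 9.11 ± 2.92 CPM in KO and 9.29 ± 2.98 CPM in WT (SD, n = 8 each). The log2 fold change was -0.01 (SE 0.21, 95% interval -0.45 to 0.42; adjusted p = 0.991, edgeR). In linear terms this interval runs from 0.730 to 1.34 times the WT level.

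Cfd encodes adipsin, complement factor D, a serine protease that fat cells release in large amounts (ENSMUSG00000061780, chr10:79890853-79892655, plus strand). It had lowest, median and highest levels of 12.8, 52.5 and 88.4 CPM in KO and of 13.0, 55.7 and 76.8 CPM in WT. KO replicates 5 and 7, at 12.8 and 17.4 CPM, and WT replicate 8, at 13.0 CPM, were the 3 lowest libraries, and the groups overlapped. With a highest library 6.93 times the lowest, the mean was 48.3 ± 26.4 CPM in KO and 47.2 ± 20.8 CPM in WT (SD, n = 8 each), and the log2 fold change was 0.04 with a wide interval of -0.73 to 0.80 (adjusted p = 0.988, edgeR).

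Retn encodes resistin, a fat cell hormone that opposes insulin in mice (ENSMUSG00000012705, chr8:3655770-3660110, plus strand). Its lowest, median and highest levels were 0.823, 3.01 and 4.49 CPM in KO and 1.21, 2.60 and 3.77 CPM in WT. The low ends were KO replicate 5 and WT replicate 6, the same libraries as for Adipoq, and the 2 genotypes overlapped over most of the range. The log2 fold change was 0.14 (SE 0.30, 95% interval -0.49 to 0.78; adjusted p = 0.927, edgeR).

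Lep encodes leptin, the hormone that reports fat stores to the brain (ENSMUSG00000059201, chr6:29060220-29073877, plus strand). It had lowest, median and highest levels of 0.543, 1.96 and 3.18 CPM in KO and of 0.329, 2.14 and 3.20 CPM in WT. KO replicate 1 and WT replicate 4 were lowest and KO replicate 6 and WT replicate 8 highest. Those extremes were not the ones of Adipoq: KO replicate 1 had the highest Cfd of all 16 libraries, and WT replicate 8 the next to lowest. The log2 fold change of Lep was -0.05 (SE 0.34, 95% interval -0.76 to 0.65; adjusted p = 0.982, edgeR), on counts of 10 to 119 per library.

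Among the genes of fatty acid binding and the lipid droplet, Fabp4 had the tightest estimate (ENSMUSG00000062515, chr3:10204088-10208576, minus strand). Its lowest, median and highest levels were 94.2, 114.1 and 119.5 CPM in KO and 87.9, 99.5 and 131.6 CPM in WT. The highest library was WT replicate 7 and the lowest WT replicate 4, so the WT libraries enclosed the KO range. The mean was 109.6 ± 9.02 CPM in KO and 103.4 ± 14.1 CPM in WT (SD, n = 8 each), a log2 fold change of 0.08 (SE 0.07, 95% interval -0.07 to 0.24; adjusted p = 0.770, edgeR).

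Plin1 encodes perilipin 1, the coat protein of the large droplet that gates lipolysis (ENSMUSG00000030546, chr7:79720218-79732903, minus strand). It had lowest, median and highest levels of 2.84, 6.31 and 8.17 CPM in KO and of 2.52, 5.32 and 8.43 CPM in WT. KO replicate 7 and WT replicate 8 were lowest, KO replicate 3 and WT replicate 1 highest, and the ranges nearly coincided. The log2 fold change was 0.07 (SE 0.24, 95% interval -0.43 to 0.57; adjusted p = 0.957, edgeR). Cidec, whose product fuses droplets into the single droplet of white fat (ENSMUSG00000030278, chr6:113424634-113435760, minus strand), had lowest, median and highest levels of 3.53, 8.29 and 12.7 CPM in KO and of 4.12, 8.28 and 12.9 CPM in WT. Its medians were nearly equal and the ranges coincided. The log2 fold change was 0.01 (SE 0.27, 95% interval -0.55 to 0.57; adjusted p = 0.996, edgeR).

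Cidea, a relative of Cidec that enlarges droplets and is best known from brown fat (ENSMUSG00000024526, chr18:67343604-67367785, plus strand), had lowest, median and highest levels of 0.391, 0.603 and 0.944 CPM in KO and of 0.499, 0.810 and 0.988 CPM in WT. In 7 of 8 KO libraries it was below the WT mean, and the exception was KO replicate 3, but the ranges overlapped over most of their length. The mean was 0.621 ± 0.167 CPM in KO and 0.763 ± 0.182 CPM in WT (SD, n = 8 each). This was the largest fold difference of the 9 tested genes, a log2 fold change of -0.28 (SE 0.19, 95% interval -0.69 to 0.12; adjusted p = 0.691, edgeR), and it did not pass the test. It rests on counts of 10 to 35 per library.

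Pparg, the receptor that directs fat cell formation (ENSMUSG00000000440, chr6:115360951-115490399, plus strand), had lowest, median and highest levels of 1.76, 2.25 and 3.28 CPM in KO and of 1.37, 2.36 and 2.96 CPM in WT. KO replicate 6 was the highest library and WT replicate 8 the lowest, and the ranges overlapped. The log2 fold change was 0.15 (SE 0.17, 95% interval -0.19 to 0.50; adjusted p = 0.820, edgeR). Ucp1, the proton channel that lets brown and beige fat make heat (ENSMUSG00000031710, chr8:83290352-83298452, plus strand), was close to the limit of detection. It had lowest, median and highest levels of 0.0388, 0.239 and 0.618 CPM in KO and of 0.0401, 0.168 and 0.235 CPM in WT, from counts of 1 to 19 per library. Only KO replicate 3 stood clear of the rest. Ucp1 was too low for the filter, and an exact two-sided permutation test of mean log2(CPM + 0.5) gave p = 0.181 over all assignments of the 16 libraries to 8 and 8. The same exact permutation test gave unadjusted p-values from 0.127 for Cidea to 0.943 for Cidec over the tested genes. On that scale the mean of KO minus the mean of WT was -0.02 for Cidec and -0.04 for Cfd, opposite in sign to the fitted fold changes, all of them close to 0.

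**Figure D2:**
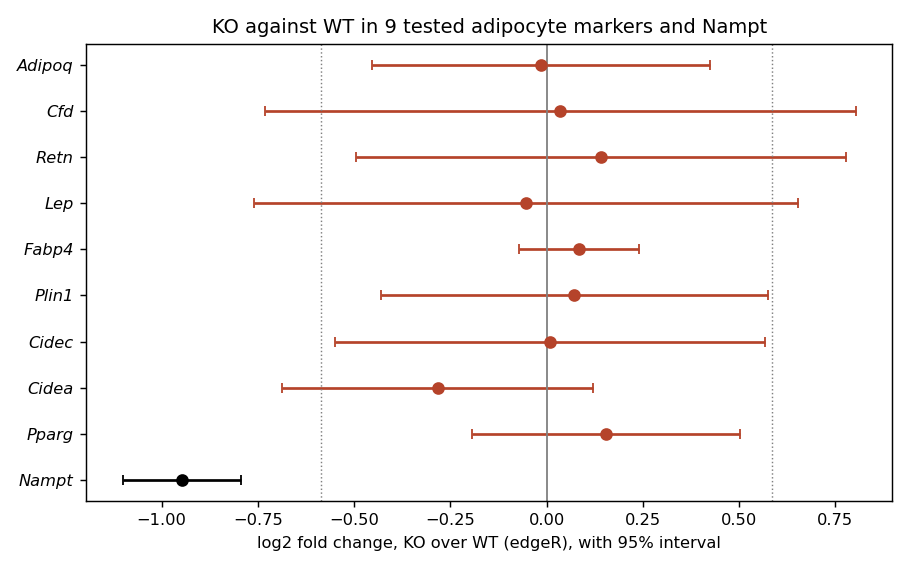
Log2 fold change of KO over WT (edgeR) with 95% intervals for the 9 tested fat cell markers, and for Nampt in black. Dotted lines mark a 1.5-fold change in either direction. The 9 markers lie between -0.28 for Cidea and 0.15 for Pparg with intervals that all cross 0, and Nampt lies at -0.95 with an interval that does not.

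How large a difference these libraries still allow depended on the gene. The 95% intervals excluded any change beyond 1.5-fold, up or down, for 5 of the 9 genes, Adipoq, Plin1, Cidec, Fabp4 and Pparg, against 86.2% of all tested genes. They excluded any change beyond 2-fold for 9 of 9, against 97.2% of all tested genes. The interval plot shows the narrow bar of Fabp4 beside the wide bars of Cfd, Lep and Retn. Differences inside these intervals remain possible with 8 libraries per genotype, and the intervals do not show that KO and WT are alike. Each interval is for 1 gene and is not adjusted for the number of genes tested.

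The width of the intervals came with an unusual spread between libraries of 1 genotype. The SD of log2(CPM + 0.5) within genotype was above the median of all tested genes, 0.155, for 9 of 9 tested markers. Cfd had 0.907, higher than 99.7% of all tested genes, Lep 0.626, Cidec 0.602, Retn 0.599, Plin1 0.513 and Adipoq 0.454, the last still higher than 96.7% of all tested genes. Among genes of a like level (within 0.5 on the log2 scale), Adipoq was above 97.7%. Fabp4, Cidea and Pparg had smaller SDs. Fabp4 had 0.157, above 51.1% of all tested genes but above 79.6% of genes of a like level. Cidea had 0.212, above 70.1% of all tested genes and above only 24.8% of genes of a like level. The SD of Pparg was 0.290, above 86.5% of all tested genes and above 76.2% of genes of a like level. As a ratio of the highest to the lowest of the 16 libraries, Ucp1, on its few counts, spanned 15.95-fold, Lep 9.73-fold, Cfd 6.93-fold, Retn 5.45-fold, Cidec 3.67-fold, Plin1 3.35-fold, Cidea 2.53-fold, Adipoq 2.48-fold and Pparg 2.39-fold, with Fabp4 the narrowest.

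**Figure D3:**
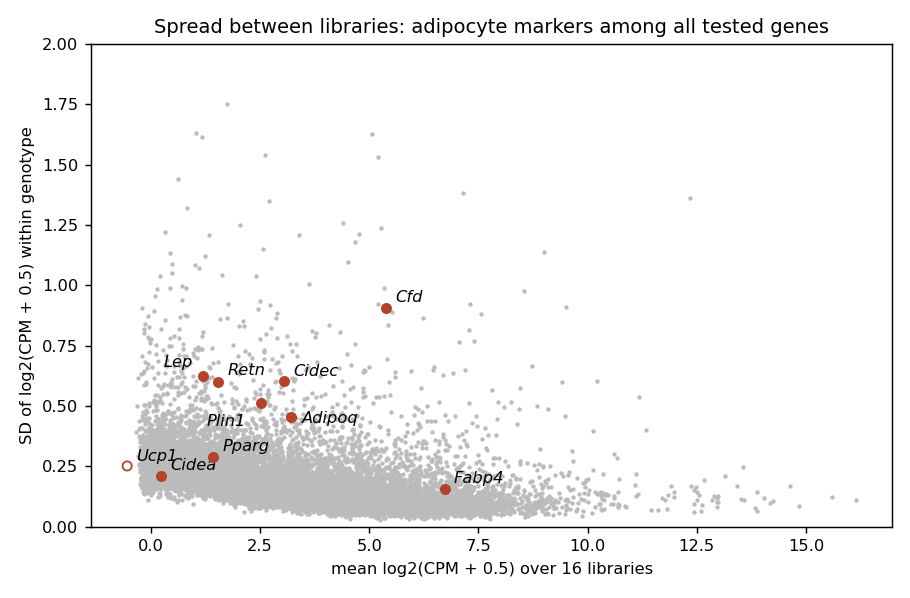
SD of log2(CPM + 0.5) within genotype (vertical) against mean log2(CPM + 0.5) over 16 libraries (horizontal) for all tested genes (grey) and the fat cell markers (red, with Ucp1 as an open circle because it was not tested). Cfd at 0.907 and the other secreted products, with Cidec, Plin1 and Adipoq, lie above the bulk of genes of their level. Fabp4 at 0.157 is above 79.6% of genes of a like level and Cidea at 0.212 above 24.8%.

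A group of 5 genes, Adipoq, Plin1, Cidec, Cfd and Retn, went up and down together from library to library. Their 10 pairwise correlations of log2(CPM + 0.5) over the 16 libraries ran from 0.796 to 0.903, with a median of 0.839. These 5 were grouped because of their correlations in the same libraries, so that range is a description of the group and not a test of it. Against Adipoq, Plin1 had Pearson's r = 0.903 and Spearman's rho = 0.894 (permutation test, adjusted p = 4.5e-05 over the 9 relations with Adipoq for r, from the smallest p that 100000 permutations can give, 1e-05). Cidec had r = 0.881 and rho = 0.815 (permutation adjusted p = 4.5e-05 for r), Cfd r = 0.826 and rho = 0.903 (permutation adjusted p = 0.00021), and Retn r = 0.841 and rho = 0.821 (permutation adjusted p = 0.000315). These relations had the same sign in both genotypes: r with Adipoq within KO and within WT was 0.95 and 0.857 for Plin1, 0.953 and 0.798 for Cidec, 0.925 and 0.708 for Cfd, and 0.949 and 0.716 for Retn. Ordered by Adipoq the libraries formed a gradient without a break, and KO and WT were mixed along it, with KO replicates 5 and 7 at its low end and KO replicate 8 and WT replicate 1 at its high end. Without KO replicates 5 and 7, the 2 libraries farthest from the Adipoq median, r was 0.864 for Plin1, 0.821 for Cidec, 0.735 for Cfd and 0.760 for Retn. Without KO replicates 1, 3, 5 and 8 it was 0.883, 0.836, 0.738 and 0.749 in the same order.

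**Figure D4:**
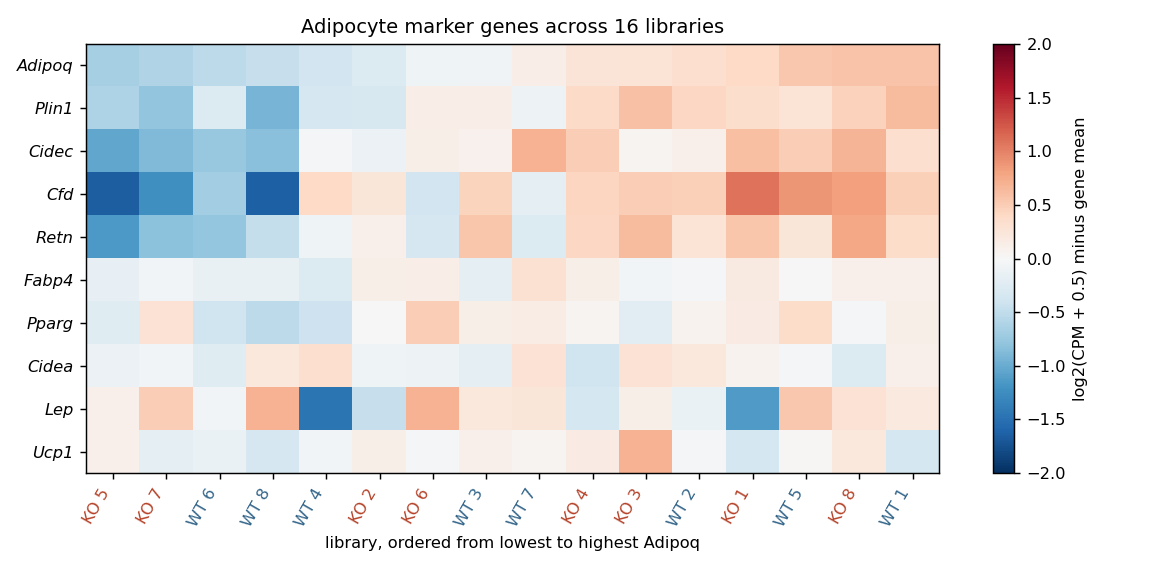
Log2(CPM + 0.5) of each fat cell marker minus its mean over the 16 libraries (colour scale, blue low and red high), with libraries ordered along the horizontal axis from lowest to highest Adipoq, KO names in red and WT names in blue. The top 5 rows change together, from KO 5 with 5.35 CPM of Adipoq to WT 1 with 13.3 CPM, while Lep is lowest in WT 4 and KO 1.

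The remaining markers did not share that pattern, or shared it less closely. Fabp4 had r = 0.567 with Adipoq (permutation adjusted p = 0.0404), but rho = 0.491 (permutation adjusted p = 0.0992) and r = 0.523 without KO replicates 5 and 7 (permutation adjusted p = 0.083), so that the call depended on the measure. With genotype means removed its r was 0.604 (permutation adjusted p = 0.0223), and within KO and within WT it was 0.622 and 0.619. Pparg had r = 0.451 (permutation adjusted p = 0.122), and 0.589 without those 2 libraries (permutation adjusted p = 0.0494). Within KO its r with Adipoq was -0.048 and within WT 0.895, a difference that was not tested. Cidea, Lep and Ucp1 had r = 0.032, 0.00 and 0.167 with Adipoq (permutation adjusted p = 0.999, 0.999 and 0.714). Given as descriptions, the highest r of Fabp4 with another marker was 0.67, with Cidec, and Pparg had r = 0.49 with Cidec. Fabp4 and Pparg correlated with each other at r = 0.61, and Lep with Cfd at r = -0.42, also as descriptions. The 2 products were far apart in some libraries and both high in others: WT replicate 8 had 3.20 CPM of Lep and 13.0 CPM of Cfd, KO replicate 1 had 0.543 CPM of Lep and 88.4 CPM of Cfd, and WT replicate 5 had 2.81 CPM of Lep and 76.8 CPM of Cfd.

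**Figure D5:**
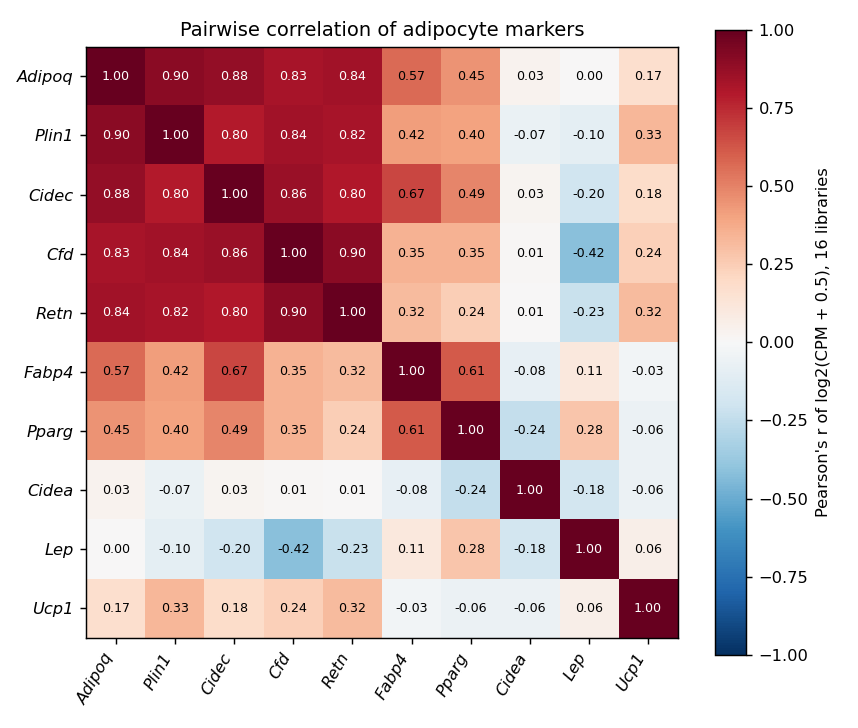
Pearson's r of log2(CPM + 0.5) over 16 libraries for every pair of the 10 fat cell markers (colour scale from -1 to 1, value printed in each square). Adipoq, Plin1, Cidec, Cfd and Retn form a block with r of at least 0.796. Fabp4 has r = 0.67 with Cidec of that block and 0.61 with Pparg, and Pparg has 0.49 with Cidec. Cidea, Lep and Ucp1 stand outside.

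The genes outside the markers whose pattern was most like that of Adipoq, as a description over 16 libraries and 13791 other tested genes, began with Lgals12 and Adrb3. Lgals12, a galectin of the fat cell lipid droplet, had r = 0.953, and Adrb3, the adrenergic receptor of fat cells, r = 0.909. The next 8 were Cdo1 at 0.903, A530016L24Rik at 0.896, Glb1l2 at 0.889, Prkar2b at 0.873, Klhdc7a at 0.866, Hcar1, the lactate receptor of fat cells, at 0.855, Scd1, a fatty acid desaturase, at 0.855 and Thrsp, a regulator of lipid synthesis, at 0.839. Over all tested genes the median r with Adipoq was -0.01 and the 95th percentile 0.418, and 21 genes exceeded 0.8. Lgals12 ran from 0.588 CPM in KO replicate 5 to 2.30 CPM in KO replicate 8 within KO, and from 0.687 to 2.05 CPM within WT, with a log2 fold change of 0.06 (adjusted p = 0.973, edgeR). Lep had another companion, chosen here after its values were seen: Retnla, a secreted relative of resistin made by fat tissue and alternatively activated macrophages in mice, had r = 0.918 with Lep, 0.927 within KO and 0.937 within WT. Retnla was lowest in KO replicate 1 at 6.24 CPM and in WT replicate 4 at 4.48 CPM, the libraries lowest in Lep. The 5 genes most like Fabp4, also looked up after the values were seen, were Wwc2 at 0.844, Btbd1 at 0.805, Dgat2, the last enzyme of triglyceride synthesis, at 0.799, Tsga10 at 0.795 and Lipe, hormone-sensitive lipase, at 0.791.

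The wider fat cell programme was read from 7 further lists of 100 genes, of which 93 were tested and 0 called in either direction, against 0.0435% of all tested genes. Before adjustment, 7 of the 93 had p under 0.05, while 9.57% of all tested genes did. Of the 93, 44 had a fold change above 0, and the median log2 fold change was -0.005.

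Of 20 other white fat cell genes, 19 were tested, 0 were called and 12 were above 0, with a median log2 fold change of 0.01. The 3 highest were Car3, a carbonic anhydrase also made by slow muscle fibres, with 749.3 CPM in KO and 746.7 CPM in WT, Plin4, a droplet coat protein also made by muscle, with 245.5 CPM in KO and 244.9 CPM in WT, and Itih5 with 45.1 CPM in KO and 41.97 CPM in WT. Levels of those 3 did not follow Adipoq (r = 0.087 for Car3, -0.173 for Plin4 and 0.014 for Itih5), whereas 12 of the 19 tested genes of the list exceeded the 95th percentile of r, with a list median of 0.657.

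Of 14 genes of droplet coats and triglyceride breakdown, 13 were tested, 0 were called and 3 were above 0, with a median log2 fold change of -0.04. Beside Plin4, the highest were Pnpla2, the first lipase of triglyceride breakdown, with a log2 fold change of -0.07, and Fitm1, a droplet-forming protein of muscle, with -0.04. Only 2 of the 13 exceeded the 95th percentile of r with Adipoq. Of 9 genes of lipid uptake, all were tested, 0 were called and 4 were above 0, with a median log2 fold change of 0.00. Lpl, the lipase that frees fatty acids from lipoproteins, averaged 483.2 CPM in KO and 483.2 CPM in WT, and Fabp3 338.2 CPM in KO and 355.6 CPM in WT. Vldlr, a lipoprotein receptor, had a log2 fold change of -0.09.

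Of 18 genes of fatty acid and triglyceride synthesis, all were tested, 0 were called and 12 were above 0, with a median log2 fold change of 0.08. Gpd1, Acacb and Lpin1, the 3 highest and all strong in muscle fibres, had log2 fold changes of -0.04, -0.08 and -0.07. An unadjusted p under 0.05 in edgeR was reached by 2 of the 18, while 9.57% of all tested genes reached it. The first was Acaca, acetyl-CoA carboxylase 1 (log2 fold change 0.30, adjusted p = 0.512, edgeR). The other was Mlxipl, the carbohydrate-sensing factor ChREBP (0.12, adjusted p = 0.488, edgeR). Both were named after their values were seen. In 9 of the 18 genes r with Adipoq exceeded the 95th percentile, among them Scd1 and Thrsp.

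Of 16 transcription factors and partners of fat cell formation, all were tested, 0 were called and 6 were above 0, with a median log2 fold change of -0.08. The 3 highest were Rxra, Rxrg and Med1, of which the first 2 are retinoid X receptors that pair with PPARG. Rxra averaged 209.7 CPM in the KO libraries and 234.7 CPM in the WT libraries, a log2 fold change of -0.16 (adjusted p = 0.292, edgeR), and Rxrg 41.2 CPM in the KO libraries and 49.0 CPM in the WT libraries, with a log2 fold change of -0.25 (adjusted p = 0.166, edgeR). Med1, a Mediator subunit that binds nuclear receptors, had 0.06. Before adjustment, 4 of the 16 had p under 0.05, while 9.57% of all tested genes did: Rxra, Rxrg and Ppard, lower in KO, and Prdm16, higher in KO. Ppard, a PPAR prominent in muscle fibres, averaged 31.1 CPM in KO and 34.3 CPM in WT, a log2 fold change of -0.14 (adjusted p = 0.433, edgeR). Prdm16, a factor of brown and beige fat, averaged 5.36 CPM in KO and 4.56 CPM in WT, a log2 fold change of 0.24 (adjusted p = 0.167, edgeR); it and Ppard are named here because of their values. Cebpa alone of this list exceeded the 95th percentile of r with Adipoq, at 0.808.

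Of 15 brown and beige fat genes, 12 were tested, 0 were called and 6 were above 0, with a median log2 fold change of 0.00. Cox8b and Cox7a1, subunits of cytochrome c oxidase also made by heart and muscle, had log2 fold changes of 0.04 and 0.02, and Ppargc1a, the coactivator PGC-1alpha, -0.26 (adjusted p = 0.599, edgeR). Of 10 receptors for fat cell hormones and lipolytic signals, 8 were tested, 0 were called and 2 were above 0, with a median log2 fold change of -0.07. Muscle receives adiponectin through Adipor1, Adipor2 and Cdh13, which had log2 fold changes of -0.08, -0.04 and -0.06.

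Markers of other cells in the samples are given beside these results for comparison. Of 12 markers of fibro-adipogenic progenitors, the cells that can form fat in muscle, 12 were tested and 0 called, with a median log2 fold change of 0.02. Of 14 endothelial markers, 0 were called and 11 were above 0. Their median log2 fold change was 0.12, against 0.0045 over all tested genes. An unadjusted p under 0.05 in edgeR was found for 4 of the 14, all higher in KO, while 9.57% of all tested genes had one. The summed level of these endothelial markers ran from 560.0 to 683.3 CPM in KO and from 501.0 to 654.6 CPM in WT. Of 10 macrophage markers, 0 were called and 10 were above 0, with a median log2 fold change of 0.06 and a summed level of 134.3 to 313.6 CPM in KO and of 130.4 to 341.5 CPM in WT. The 8 Schwann cell markers and 6 tendon markers were all tested, with 0 called and median log2 fold changes of 0.04 and 0.03. Of 7 keratinocyte markers, 4 (Krt5, Krt14, Krt1 and Krt15) were at 0 in all 16 libraries. Of the 2 tested, Trp63, a transcription factor of epithelial stem cells, was called lower in KO, close to the threshold (log2 fold change -0.46, adjusted p = 0.0471, edgeR). Krt10, the other, went the opposite way without being called (log2 fold change 0.15, adjusted p = 0.845, edgeR). The keratinocyte list thus showed no common shift, and the cells that gave the Trp63 RNA were not tested. The 6 lymphocyte markers were too low to test, their sums having a median of 0.702 CPM in the KO libraries and 0.538 CPM in the WT libraries. Of the 8 muscle fibre genes, 0 were called.

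Adipoq was set against the mean log2 level of 5 of these lists, the RNA integrity number and the library total, and 0 of the 7 relations passed. Its r was 0.292 with macrophage markers (rho = 0.274, permutation p = 0.268, adjusted 0.626), 0.310 with fibro-adipogenic markers (rho = 0.318, permutation p = 0.242, adjusted 0.626) and -0.140 with endothelial markers (rho = -0.168, permutation p = 0.613, adjusted 0.858). With Schwann cell and tendon markers r was 0.013 and 0.182 (permutation adjusted p = 0.965 and 0.858). With RNA integrity r was 0.365 (rho = 0.286, permutation p = 0.165, adjusted 0.626) and with the log2 library total 0.028 (rho = 0.053, permutation p = 0.920, adjusted 0.965). Without KO replicates 5 and 7, r with Adipoq was 0.057 for macrophage, 0.170 for fibro-adipogenic and 0.260 for endothelial markers and 0.420 for RNA integrity. Without KO replicates 1, 3, 5 and 8, r with RNA integrity was 0.634 (permutation p = 0.021, adjusted 0.147), and the part of RNA quality in the Adipoq level was not tested. Within KO and within WT, r with Adipoq was 0.633 and -0.033 for macrophage markers and -0.650 and 0.427 for endothelial markers, differences between the genotypes that were not tested. All 10 markers were then set against the endothelial and macrophage lists, after the values were seen, and 0 of these 20 relations passed. The highest r was that of Cfd with macrophage markers (r = 0.668, rho = 0.506, permutation p = 0.00505, adjusted 0.0882), with r = 0.631 without KO replicate 7 and WT replicate 4, the libraries farthest from the list's median. With the macrophage list Retn had r = 0.612 (rho = 0.594, permutation p = 0.0119), Ucp1 r = 0.582 (rho = 0.579, permutation p = 0.0139) and Lep r = -0.546 (rho = -0.521, permutation p = 0.0265), each with an adjusted p of 0.0882, and r = 0.643, 0.659 and -0.335 without those 2 libraries. Lep and Pparg each had r = 0.565 with the endothelial list (rho = 0.424 and 0.579, permutation p = 0.0263 and 0.0221, adjusted 0.0882 for both), and 0.206 and 0.391 without those 2 libraries. Fabp4 and the endothelial list had r = 0.402 (rho = 0.406, permutation p = 0.122, adjusted 0.272), and r = 0.397 without those 2 libraries. Within KO and within WT this r was -0.331 and 0.783. With the macrophage list Fabp4 had r = -0.183, and 0.358 within KO and -0.586 within WT. These differences between the genotypes, and the part of endothelial RNA in the Fabp4 level, were not tested.

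Without KO replicates 1, 3, 5 and 8, the libraries rich in small nuclear and nucleolar RNA, 0 of the 9 genes were called either. The estimates then moved to a log2 fold change of -0.22 for Adipoq, -0.31 for Cfd, -0.20 for Retn, 0.10 for Lep, 0.11 for Fabp4, -0.14 for Plin1, -0.13 for Cidec, -0.45 for Cidea and 0.33 for Pparg. For Cfd, Retn, Plin1, Cidec and Lep the sign differs from that with all 16 libraries. The part of RNA composition in these shifts was not tested.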

How the data were processed

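Values are estimated counts per gene, deposited by the authors merged into 1 table and not scaled to depth; 11.1% were not whole, and all were rounded. Reads were 52 bp pairs, per the labels' protocols. The tools named in the submitters' processing notes are bcl2fastq 4.0.3, STAR and Salmon, and the build is GRCm38. The versions of STAR and Salmon, their gene annotation and their handling of strand were not given in the sources used here.

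KO and WT were compared with edgeR 4.0.16 (R 4.3.3), by its quasi-likelihood F test with TMM scaling and the default low-count filter, without covariates, and p-values were adjusted over all 13792 tested genes. CPM were computed here with TMM-scaled library sizes. Single values were compared by exact permutation over all assignments, and correlations by 100000 permutations on log2(CPM + 0.5). GENCODE vM21 gave coordinates and transcript lengths; RefSeq gave promoters. The members and lists were chosen with earlier results of these data known. Named genes were the members, Nampt, called members of each list or, where there were none, its 3 with the highest mean CPM, and the 10 genes most like Adipoq. The alternatives were other scalings, filters, pseudocounts, DESeq2 1.42.0, limma 3.58.1, a replicate block, RNA integrity as a covariate and left-out libraries. Pairs of libraries within a genotype differed by far more than sampling noise (smallest chi-square per degree of freedom 8.09 in KO and 9.42 in WT), and all were kept.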

Additional observations from a re-analysis of the deposited data

Results flagged for a closer look

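Ucp1 in KO replicate 3 was far from the other KO libraries on the linear CPM scale. It had 0.618 CPM there, against 0.292 CPM in the next highest KO library and a KO median of 0.239 CPM. The gap to the next library was 0.564 of the KO range, above Dixon's critical value for 8 samples. Among 20 groups checked (10 genes in 2 genotypes) chance flags about 1 in 20, and the counts behind Ucp1 were at most 19 per library.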

How the results depend on the processing

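The number of fat cell markers called was 0 under all 26 alternatives, with a lowest adjusted p of 0.386. DESeq2 gave no adjusted p for Cidea, Lep, Retn and Pparg. Of 233 estimates, 194 kept their sign and 39 changed it. With limma the log2 fold change was 0.0020 for Adipoq, -0.05 for Cidec, -0.04 for Cfd, 0.04 for Lep and -0.02 for Retn. With RNA integrity as a covariate Cidec was at -0.02. Without KO replicates 1, 3, 5 and 8, Plin1, Cidec, Cfd, Lep and Retn were at -0.14, -0.13, -0.31, 0.10 and -0.20. Leaving out 1 library at a time gave -0.11 to 0.08 for Adipoq, -0.03 to 0.19 for Plin1, -0.10 to 0.13 for Cidec, -0.14 to 0.18 for Cfd and -0.22 to 0.09 for Lep. The cause was not tested.

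Over all genes 6 were called, 3 higher and 3 lower in KO. The count was 2 with DESeq2's size factors, 2 with library totals (1 higher and 1 lower each), 3 without the filter, 96 with DESeq2 (15 higher and 81 lower), 2 without the 4 KO libraries, and 2 to 8 when 1 library was left out. Replicate numbers gave no clear sign of pairing between the libraries (r of same-numbered deviations -0.109 to 0.247, over 0.1 in 3 of 8). Only 2 of 8 KO libraries were closest to their own number. Pairing was not tested, and a partial one remains possible. With the replicate block 2 genes and 0 markers were called, Cidec was at -0.0029 and Cfd at -0.03.

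The correlation of Fabp4 with Adipoq, 0.567, no longer passed in 3 alternatives: 0.491 as rho, 0.523 without KO replicates 5 and 7, and 0.49 without the 4 KO libraries, an alternative chosen after seeing the data. Pparg reached 0.589 and Cidea -0.069 without KO replicates 5 and 7. Under the stricter filter Cidea was not tested, and Ucp1, below the filter, has no estimate in most fits. Counts of at most 35 per library limit Cidea and of at most 19 limit Ucp1.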
